A study of Mus musculus with 10 samples.

Results

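Cholesterol and fatty acid synthesis genes were followed in RNA-seq libraries of mouse splenic germinal center B cells after immunization, which hypermutate their immunoglobulin genes and compete for antigen. The group holds 32 genes given by name, of 55421 genes in the deposited count table: 6 genes of the mevalonate steps, 11 of the later sterol steps, 6 that control the SREBP transcription factors or move sterols, and 9 of fatty acid synthesis and remodelling. All 32 were in the table and all passed the filter on low counts, which left 16596 genes, and the lowest count of a member in a library was 97 reads. The 10 libraries comprised 2 HOMO CC, 2 HOMO CB, 3 WT CC and 3 WT CB libraries, where HOMO mice were labelled Pbrm1-/- and WT mice Pbrm1+/+. All mice were C57BL/6, 8 to 10 weeks old, and their germinal center B cells were enriched from the spleen with beads for the lectin PNA on day 10 after immunization. CB and CC are not explained in the labels, the series title speaks of centrocytes, and the way in which the fractions were separated is not given in the sources used here. The labels name neither the change made in Pbrm1 nor a Cre driver, nor do they state that each library came from its own mouse. The count columns of HOMO and WT alike carry the letters AID after Pbrm1, and their meaning is not given. The spread that the p-values measure is that of these libraries and may be partly technical.

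Cells make cholesterol from acetyl-CoA through mevalonate, which is turned into the isoprenoid farnesyl diphosphate, then into squalene and lanosterol, and then by a chain of demethylations, reductions and isomerizations into cholesterol. Fatty acids are built from the same acetyl-CoA, by carboxylation to malonyl-CoA and repeated condensation, and are then lengthened and desaturated. Most genes of both branches are targets of the SREBP factors, which are held in the endoplasmic reticulum with their escort Scap by the Insig proteins when sterols are plentiful and are released by proteolysis when sterols run low, and dividing B cells need both products for new membrane.

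The libraries held 9954006 to 67625110 counts. Values are CPM, read counts scaled to the size of each library, here adjusted by TMM factors. Pbrm1, which encodes a bromodomain subunit of the PBAF chromatin remodelling complex, had 152 and 150.4 CPM in HOMO CC, 178 and 164 CPM in HOMO CB, 239, 239 and 250.3 CPM in WT CC and 319, 309 and 312 CPM in WT CB, so HOMO lay below WT in both fractions and its RNA remained present. The counts cover the whole gene, so transcripts that lack only a deleted stretch would still be counted. Cxcr4 was lower and Cd83 higher in every CC library than in every CB library, as known for dark zone and light zone cells: Cxcr4 ranged from 69.8 to 111 CPM in CC and from 243 to 364 CPM in CB, and Cd83 from 311 to 389 CPM in CC and from 127 to 157 CPM in CB. Both come from a list of 6 genes set for this check, and Polh, Lig4, Cd86 and Nfkb2 of that list are not given singly. The sum of all 6 overlapped, with 875 to 998 CPM in CC and 908 to 1127 CPM in CB. That sum adds genes that run opposite ways, such as Cxcr4 and Cd83. Bcl6, which defines germinal center B cells, ranged from 357 to 581.8 CPM. The sum of 6 germinal center B cell genes, Bcl6 among them, was lower in every CC library than in every CB library. It ranged from 1049 to 1240 CPM in CC and from 1424 to 1959 CPM in CB. Libraries WT CC 1 and 2 stood apart. The summed level of 11 macrophage genes, none of them at 0 in all libraries, in WT CC was 746 CPM in library 1, 185 CPM in library 2 and 50.8 CPM in library 3, against 28.3 to 33.4 CPM in HOMO CC, 12.0 to 25.7 CPM in HOMO CB and 11.1 to 19.8 CPM in WT CB. The share of counts in the ribosomal RNA locus was 22.7%, 19.0% and 13.5% in the same 3 WT CC libraries and 8.72% to 11.9% in the other 7. Libraries also differed in how a gene's deviation from its mean over the libraries ran with its GC content, with a Spearman rho across 8792 genes of -0.18 and -0.23 in HOMO CC, -0.65 and -0.62 in HOMO CB, 0.44, 0.57 and 0.15 in WT CC and 0.16, 0.26 and -0.47 in WT CB. The summed level of 7 adipocyte and stroma genes was 81.3 to 86.0 CPM in HOMO CC, 59.7 to 61.2 CPM in HOMO CB, 78.2 to 95.9 CPM in WT CC and 55.9 to 64.3 CPM in WT CB, so it was higher in every CC library than in every CB library. Nearly all of it came from Pecam1, an endothelial marker that blood cells also express, with 85.8 and 81.1 CPM in HOMO CC, 61.0 and 59.6 CPM in HOMO CB, 94.4, 84.0 and 77.5 CPM in WT CC and 64.1, 59.3 and 55.4 CPM in WT CB. Plin1 and Col3a1 were at 0 in all libraries, and Adipoq, Fabp4, Col1a1 and Pdgfrb reached at most 0.616 CPM. The sum of 5 plasma cell genes was lower in CC, with 428 and 414 CPM in HOMO CC, 840.1 and 781 CPM in HOMO CB, 293, 318 and 515 CPM in WT CC and 647, 686 and 724 CPM in WT CB. Jchain was the largest part of it in each library, with 231 to 245 CPM in HOMO CC, 617 to 666 CPM in HOMO CB, 138 to 259.8 CPM in WT CC and 491 to 529.7 CPM in WT CB. The sum of 7 neutrophil genes was 95.9 CPM in HOMO CC library 2 and 117 CPM in HOMO CB library 2, against 0 to 12.5 CPM in the other 8 libraries. The part of these cell type genes in the results was not tested, apart from the fits that leave libraries out. Results on CC of WT mice are therefore also given without WT CC libraries 1 and 2, an alternative chosen after seeing the data.

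Levels of different genes can be set side by side only per length, here as CPM per kilobase of the deposited gene length. On this scale the members spanned a 59.0-fold range. Scd1, the stearoyl-CoA desaturase that puts the double bond into saturated fatty acids, stood at the top with a mean over the 4 groups of 109.6 CPM per kilobase. It was followed by Srebf2, the SREBP gene tied to sterol synthesis, with 65.1, by Acly, which makes cytosolic acetyl-CoA from citrate, with 47.6, by Hmgcs1, the HMG-CoA synthase, with 38.5, by the second stearoyl-CoA desaturase gene Scd2 with 37.4, by the lanosterol demethylase Cyp51 with 34.3 and by the fatty acid synthase Fasn with 29.5. At the low end were Fdps, the farnesyl diphosphate synthase, with 2.44, the elongase Elovl6 with 2.42 and the sterol reductase Tm7sf2 with 1.86 CPM per kilobase. The order was gradual, since the library ranges of all 31 pairs of neighbours in it overlapped. For 10 members the highest library lay less than 1.5-fold above the lowest, and Elovl5 with 28.0 to 34.3 CPM and the sterol desaturase Sc5d with 59.0 to 69.3 CPM varied least. For 6 members it lay at least 2-fold above: Lss, Idi1, Mvd, Fdps, Acaca and Fdft1. WT CC library 2 held the highest value of 15 members.

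**Figure D1:**
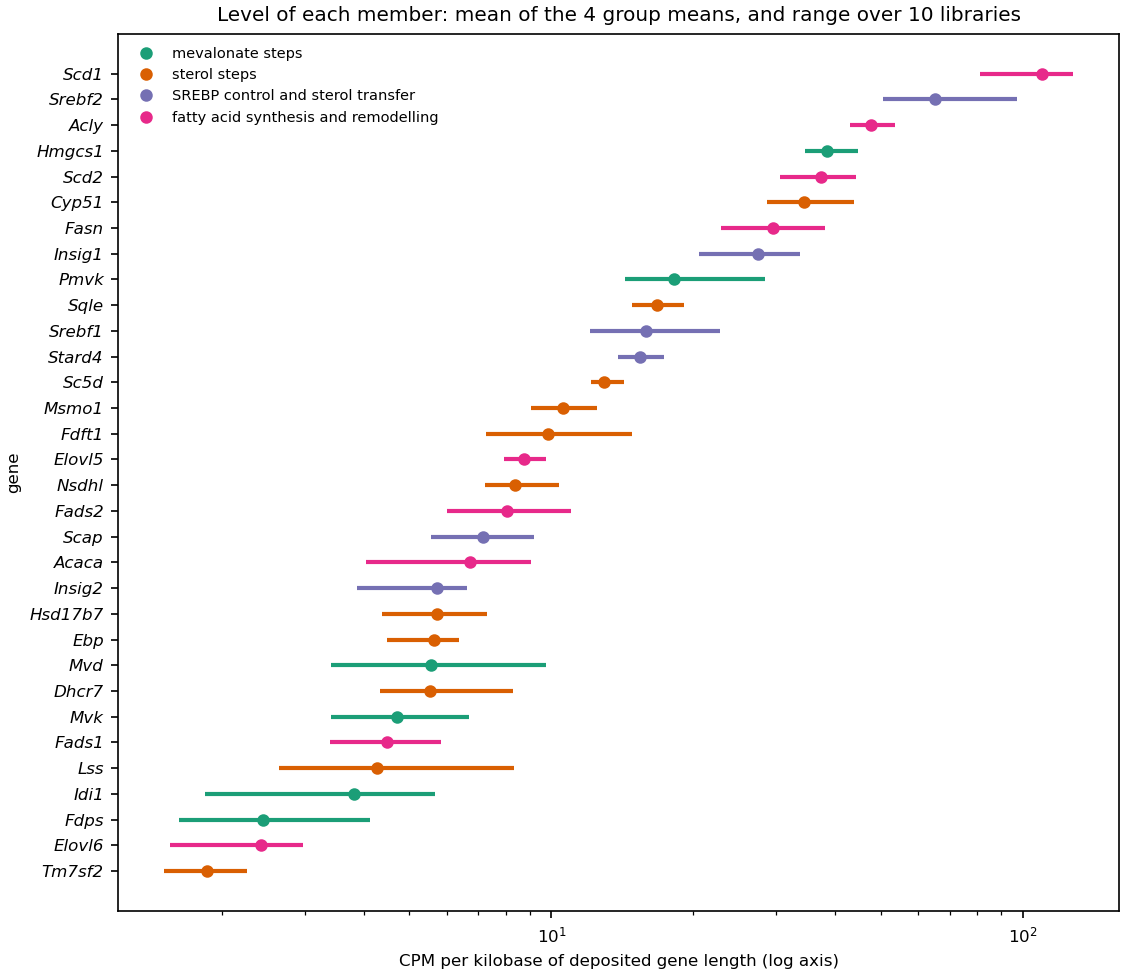
Level of each of the 32 genes in CPM per kilobase of gene length on a log axis. Points are the mean of the 4 group means and lines run from the lowest to the highest of 10 libraries, coloured by role. Scd1 and Srebf2 stand at the top and Fdps, Elovl6 and Tm7sf2 at the bottom, with overlapping lines between neighbours.

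SREBP factors are known to act on sterol regulatory elements next to NF-Y boxes. Promoters are shown for the 6 members with the smallest p between CC and CB in WT, and for Hmgcs1 because it was the member with a sterol regulatory element in its window. Each sequence holds the 250 bases before the RefSeq transcription start (build GRCm38.p6), 5′ to 3′ on the strand of the gene. Capitals mark the sterol regulatory element TCACCCCAC and the NF-Y box CCAAT, on either strand (on the reverse strand the box reads ATTGG). The windows are chr13:119690101-119690350 (plus strand) for Hmgcs1, chr8:122443423-122443672 (minus strand) for Mvd, chr10:76531355-76531604 (plus strand) for Lss, chr1:169969206-169969455 (minus strand) for Hsd17b7, chr9:110333038-110333287 (plus strand) for Scap, where the upstream one of its RefSeq windows is shown, chr11:84195188-84195437 (plus strand) for Acaca and chr11:120824548-120824797 (minus strand) for Fasn. The window of Acaca lies inside the gene as deposited, downstream of that gene's own start, and neither it nor that of Scap holds a match to these motifs.
Hmgcs1: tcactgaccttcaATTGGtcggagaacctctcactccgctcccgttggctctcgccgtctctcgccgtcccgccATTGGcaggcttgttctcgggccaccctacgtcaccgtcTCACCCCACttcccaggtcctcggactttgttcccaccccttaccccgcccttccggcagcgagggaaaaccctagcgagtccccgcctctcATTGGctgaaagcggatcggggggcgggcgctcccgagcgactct
Mvd: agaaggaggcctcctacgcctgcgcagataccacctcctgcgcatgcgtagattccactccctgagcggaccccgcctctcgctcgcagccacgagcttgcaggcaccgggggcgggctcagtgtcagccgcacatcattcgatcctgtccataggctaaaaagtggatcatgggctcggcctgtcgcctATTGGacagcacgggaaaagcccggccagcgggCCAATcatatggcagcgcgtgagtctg
Lss: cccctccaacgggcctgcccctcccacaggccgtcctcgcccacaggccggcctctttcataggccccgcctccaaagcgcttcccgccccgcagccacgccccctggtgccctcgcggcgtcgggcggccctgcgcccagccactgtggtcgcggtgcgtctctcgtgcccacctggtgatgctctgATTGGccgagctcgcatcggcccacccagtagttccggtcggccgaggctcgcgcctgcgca
Hsd17b7: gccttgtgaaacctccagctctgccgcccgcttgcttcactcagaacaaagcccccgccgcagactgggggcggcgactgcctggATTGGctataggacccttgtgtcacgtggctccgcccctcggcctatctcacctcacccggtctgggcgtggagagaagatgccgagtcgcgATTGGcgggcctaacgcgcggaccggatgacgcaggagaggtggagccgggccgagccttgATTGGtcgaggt
Scap: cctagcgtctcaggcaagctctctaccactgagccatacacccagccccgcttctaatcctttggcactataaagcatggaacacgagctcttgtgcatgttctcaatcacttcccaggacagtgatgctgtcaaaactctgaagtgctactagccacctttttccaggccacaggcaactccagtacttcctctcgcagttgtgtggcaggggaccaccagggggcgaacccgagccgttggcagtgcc
Acaca: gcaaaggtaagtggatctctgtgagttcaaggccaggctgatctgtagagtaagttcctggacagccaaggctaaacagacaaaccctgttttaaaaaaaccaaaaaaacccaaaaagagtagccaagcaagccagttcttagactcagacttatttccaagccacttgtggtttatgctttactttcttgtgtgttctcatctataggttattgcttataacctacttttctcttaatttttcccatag
Fasn: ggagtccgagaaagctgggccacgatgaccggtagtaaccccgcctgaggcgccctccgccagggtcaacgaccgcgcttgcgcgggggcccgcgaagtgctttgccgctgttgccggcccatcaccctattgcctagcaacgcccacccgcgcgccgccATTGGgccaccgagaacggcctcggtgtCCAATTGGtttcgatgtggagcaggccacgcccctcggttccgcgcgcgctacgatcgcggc

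Windows of 300 bases, from 250 before to 50 after the start, were found for 25 of the 32 members and searched on both strands. The element TCACCCCAC lay in the window of Hmgcs1, with its leftmost base 137 bases before the start, and in no other member's window, and 0.625% of the 10247 tested genes with a window had it. The looser form TCACNCCAC, which includes the strict form, was found in the same gene alone, against 1.41% of tested genes. The box CCAAT was found in 21 of the 25 members (84.0%), against 43.1% of tested genes. Hmgcs1 had 4 such boxes, of which 1 lies after the start and is not printed, Hsd17b7 and Fasn had 3 each, Mvd had 2 and Lss had 1. The Sp1 box GGGCGG was found in 20 members (80.0%), against 66.5% of tested genes, and the E-box CACGTG in 6 members (24.0%), against 11.6%. Among the members that were higher in CC than in CB of WT mice, 8 of 10 with a window held CCAAT, and so did 13 of the other 15. A match is a description of these letters and not a binding site.

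The comparison of CC with CB in WT mice gave the clearest differences. Of the 32 members 12 were higher in CC and 1 was lower by edgeR's quasi-likelihood test with Benjamini-Hochberg adjustment over all genes (adjusted p under 0.05), while 23.9% of all genes tested passed, 11.6% higher and 12.3% lower. The median log2 change of the members was 0.22, against 0.01 over all genes tested. Members were higher in CC in each role: 4 of 6 mevalonate genes, 3 of 11 sterol genes with 1 lower, 2 of 6 control genes and 3 of 9 fatty acid genes. In bulk libraries a difference in the share of cells that express a gene and a difference in RNA per cell cannot be told apart.

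Among the mevalonate genes, Mvd, the mevalonate diphosphate decarboxylase (ENSMUSG00000006517.5, mm10 chr8:122433601-122443422, minus strand), had 13.6, 18.1 and 11.8 CPM in WT CC, against 8.19, 9.001 and 7.43 CPM in WT CB. Every CC library lay above every CB library, and the log2 change was 0.82 (SE 0.18, edgeR adjusted p = 0.00747). Hmgcs1, which joins acetyl-CoA units to HMG-CoA, averaged 195 ± 12.3 CPM in WT CC and 164 ± 7.03 CPM in WT CB (SD, n = 3 each), a log2 change of 0.25. The phosphomevalonate kinase Pmvk averaged 40.2 ± 9.32 CPM in WT CC and 27.5 ± 3.12 CPM in WT CB (log2 change 0.55), and Fdps averaged 14.8 ± 3.13 CPM in WT CC and 8.97 ± 1.56 CPM in WT CB (log2 change 0.73). The last 3 genes passed as well. The mevalonate kinase Mvk did not, with 17.8, 17.9 and 12.5 CPM in WT CC, against 11.5, 12.8 and 10.7 CPM in WT CB, where only library 3 of WT CC fell within the CB range (log2 change 0.46, edgeR adjusted p = 0.0624). Idi1, the isomerase that makes dimethylallyl diphosphate, ran the other way in its values, with 6.45, 7.40 and 16.0 CPM in WT CC, against 10.4, 10.3 and 19.9 CPM in WT CB (log2 change -0.47, edgeR adjusted p = 0.378). In both fractions its library 3 was far above the other two, and 25.3% of its transcript sequence in windows of 50 bases also occurs in other genes, so its counts are uncertain.

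Among the sterol genes, Lss, the lanosterol synthase that closes the rings (ENSMUSG00000033105.12, mm10 chr10:76531588-76557138, plus strand), had 78.2, 89.9 and 49.4 CPM in WT CC, against 36.0, 42.3 and 31.9 CPM in WT CB. All CC values were above all CB values, and the log2 change of 0.99 (SE 0.19, edgeR adjusted p = 0.00405) was the largest of the members. Hsd17b7, a ketosterol reductase that takes part in the removal of methyl groups (ENSMUSG00000026675.12, mm10 chr1:169949535-169969241, minus strand), had 22.3, 23.6 and 24.0 CPM in WT CC, against 33.8, 37.3 and 30.9 CPM in WT CB. It was the member that was lower in CC, again without overlap (log2 change -0.54, SE 0.10, edgeR adjusted p = 0.00426). Cyp51 averaged 178 ± 17.4 CPM in WT CC and 142 ± 9.96 CPM in WT CB (log2 change 0.32), and Dhcr7, the reductase that yields cholesterol, averaged 39.4 ± 7.72 CPM in WT CC and 28.3 ± 2.23 CPM in WT CB (log2 change 0.48). Both passed. The other 7 sterol genes did not pass. Their log2 changes ran from -0.19 for the sterol isomerase Ebp to 0.44 for the squalene synthase Fdft1, with 0.01 for the squalene epoxidase Sqle, 0.12 for the methylsterol oxidase Msmo1, 0.03 for the sterol dehydrogenase Nsdhl, -0.01 for Sc5d and -0.08 for Tm7sf2. Fdft1 had 60.9, 61.0 and 36.0 CPM in WT CC, against 41.6, 45.4 and 29.9 CPM in WT CB, so library 3 was the lowest in each fraction. Exons of Fdft1 share bases with Ctsb on the other strand, and without a stated strand setting their reads cannot be told apart. Exons of Fdps share bases with Gm43738 on the same strand, where no strand setting would separate the reads. Of the 50-base transcript windows 26.5% of Fdft1 and 26.2% of Fdps also occur in other genes, so their counts are uncertain as well.

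Among the control genes, Scap, the sterol-sensing escort of the SREBP factors (ENSMUSG00000032485.14, mm10 chr9:110333288-110384950, plus strand), had 57.1, 68.2 and 58.6 CPM in WT CC, against 46.9, 48.4 and 41.3 CPM in WT CB. The groups did not overlap, and the log2 change was 0.43 (SE 0.10, edgeR adjusted p = 0.0109). Srebf2 had 578, 697 and 497 CPM in WT CC, against 452, 466 and 370.2 CPM in WT CB, and passed with a log2 change of 0.46. Srebf1, the SREBP gene tied more to fatty acid synthesis, had a log2 change of 0.22 and did not pass, with 105, 128 and 92.3 CPM in WT CC, against 101, 101 and 76.8 CPM in WT CB. Of the Insig genes, whose proteins hold the Scap complex in the endoplasmic reticulum, Insig1 had a log2 change of 0.21 and Insig2 of -0.35, and the sterol transfer protein gene Stard4 of 0.15. None of these passed.

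Among the fatty acid genes, Acaca, the acetyl-CoA carboxylase that makes malonyl-CoA (ENSMUSG00000020532.18, mm10 chr11:84129672-84401651, plus strand), had 144, 154 and 147 CPM in WT CC, against 69.6, 69.2 and 88.3 CPM in WT CB. The CC values were close to each other and all far above CB. The log2 change of 0.97 (SE 0.11, edgeR adjusted p = 0.000181) had the smallest p of the members. Of its 50-base transcript windows 30.4% also occur in other genes, most often in Gm5182, so its counts are uncertain too. Fasn (ENSMUSG00000025153.9, mm10 chr11:120805846-120824547, minus strand) had 372, 417 and 400.1 CPM in WT CC, against 301, 294 and 269 CPM in WT CB. It did not overlap either (log2 change 0.46, SE 0.084, edgeR adjusted p = 0.00323), and none of its windows occurs in another gene. Scd1 averaged 603 ± 14.5 CPM in WT CC and 463 ± 58.7 CPM in WT CB and passed with a log2 change of 0.38. Scd2 had a log2 change of 0.25 without passing (edgeR adjusted p = 0.0992), although its libraries did not overlap. The other 5 genes did not pass and lay between -0.22 and 0.05: Acly 0.05, the elongases Elovl5 -0.14 and Elovl6 -0.22, and the polyunsaturated fatty acid desaturases Fads1 -0.01 and Fads2 -0.21.

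**Figure D2:**
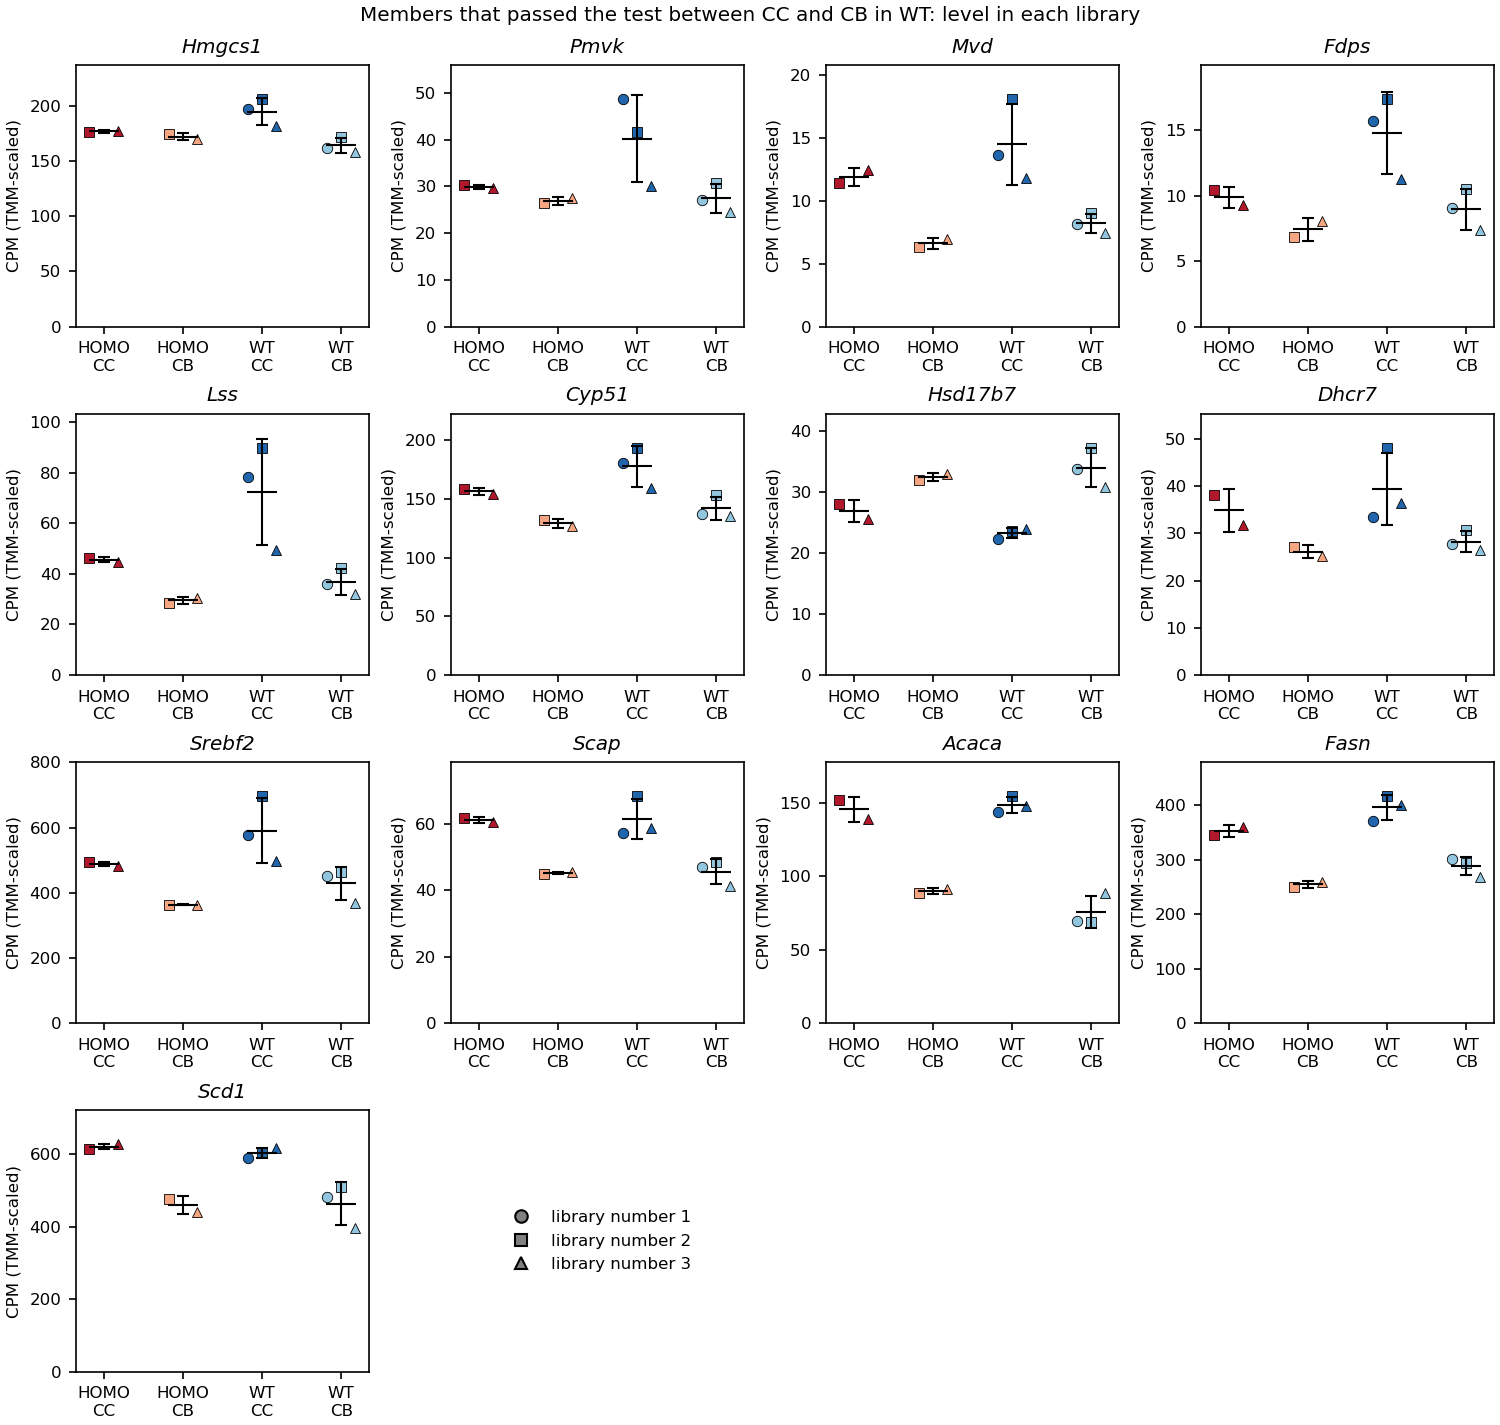
CPM of the 13 members that passed between CC and CB in WT, in each library (y axis from 0), with groups from left to right HOMO CC, HOMO CB, WT CC and WT CB. Symbols give the library number of the table, which does not tie HOMO to WT libraries, and bars are the mean ± SD. Acaca lies between 139 and 154 CPM in the CC libraries and between 69.2 and 91.4 CPM in the CB libraries, while library 3 of WT CC lies near the HOMO CC values for Lss, Pmvk and Fdps.

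Without WT CC libraries 1 and 2, which held the macrophage transcripts and the large ribosomal share, 2 members were higher and none lower, while 2.44% of all genes were called higher and 2.52% lower. These were Acaca with a log2 change of 0.97 and Fasn with 0.48, while the other 11 no longer passed, with values such as 0.53 for Mvd, 0.44 for Lss, -0.49 for Hsd17b7 and 0.37 for Scap. That fit rests on 1 WT CC library, which is assumed to vary like the other groups. With the share of the ribosomal RNA locus as a covariate, also chosen after seeing the data, Acaca alone passed (1.01), Fasn had 0.50, Lss 0.31 and Pmvk -0.064. Of all genes 1.48% were then called higher and 1.64% lower. When single libraries were left out, between 5 and 16 members were higher and between 1 and 3 lower. Over those fits 5.91% to 15.9% of all genes were called higher and 6.75% to 16.8% lower. Leaving out WT CC library 1 gave 7 higher (6.92% of all genes), and leaving out WT CC library 2 or WT CB library 1 gave 5 (7.56% and 5.91% of all genes). Acaca, Fasn, Lss, Mvd, Hsd17b7 and Scap passed in each of these 10 fits. Pmvk, Fdps and Srebf2 did not pass without WT CC library 1 (0.40, 0.69 and 0.48), WT CC library 2 (0.53, 0.60 and 0.33) or WT CB library 1 (0.54, 0.74 and 0.50), nor did Scd1 without WT CC library 2 (0.39) or WT CB library 1 (0.41). Dhcr7 did not pass without WT CC library 2 (0.31), WT CB library 1 or either HOMO CB library (0.46 in each) or WT CB library 3 (0.43). Hmgcs1 and Cyp51 did not pass in 8 and 7 of the 10 fits, the exceptions being the fits that left out library 3 of WT CC or of WT CB and, for Cyp51, library 2 of WT CB, with log2 changes of 0.21 to 0.28 for Hmgcs1 and 0.26 to 0.32 for Cyp51 in the fits in which they did not pass. Without WT CC library 3, Mvk (0.63), Fdft1 (0.67), Scd2 (0.29) and Stard4 (0.26) also passed as higher and Idi1 (-0.97) and Insig2 (-0.53) as lower, and without WT CB library 3 so did Fads2 (-0.35). With the WT library number as a fixed block, Mvk (0.45), Fdft1 (0.42), Srebf1 (0.22) and Scd2 (0.25) also passed as higher and Idi1 (-0.49) as lower. That fit called 16.9% of all genes higher and 18.4% lower.

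The libraries of WT number 3 differed from numbers 1 and 2 for most members in both fractions. WT CC library 3 lay below the mean of WT CC libraries 1 and 2 for 21 of 32 members, WT CB library 3 below that of WT CB libraries 1 and 2 for 29, and 20 members were below in both. The median log2 difference was -0.16 in CC and -0.20 in CB. It was largest below for Lss in CC (-0.77) and for Fads1 in CB (-0.58), and Idi1 stood above in both (1.21 in CC and 0.94 in CB). Across the 32 members the difference ran with the GC content of the transcripts, with a Spearman rho of -0.43 in CC and -0.60 in CB, where each value shares the same 3 libraries. With an offset for GC content 15 members were higher and 1 lower in WT CC, while 14.8% of all genes were called higher and 11.0% lower. The part of GC content in the differences between WT numbers was not tested further.

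**Figure D3:**
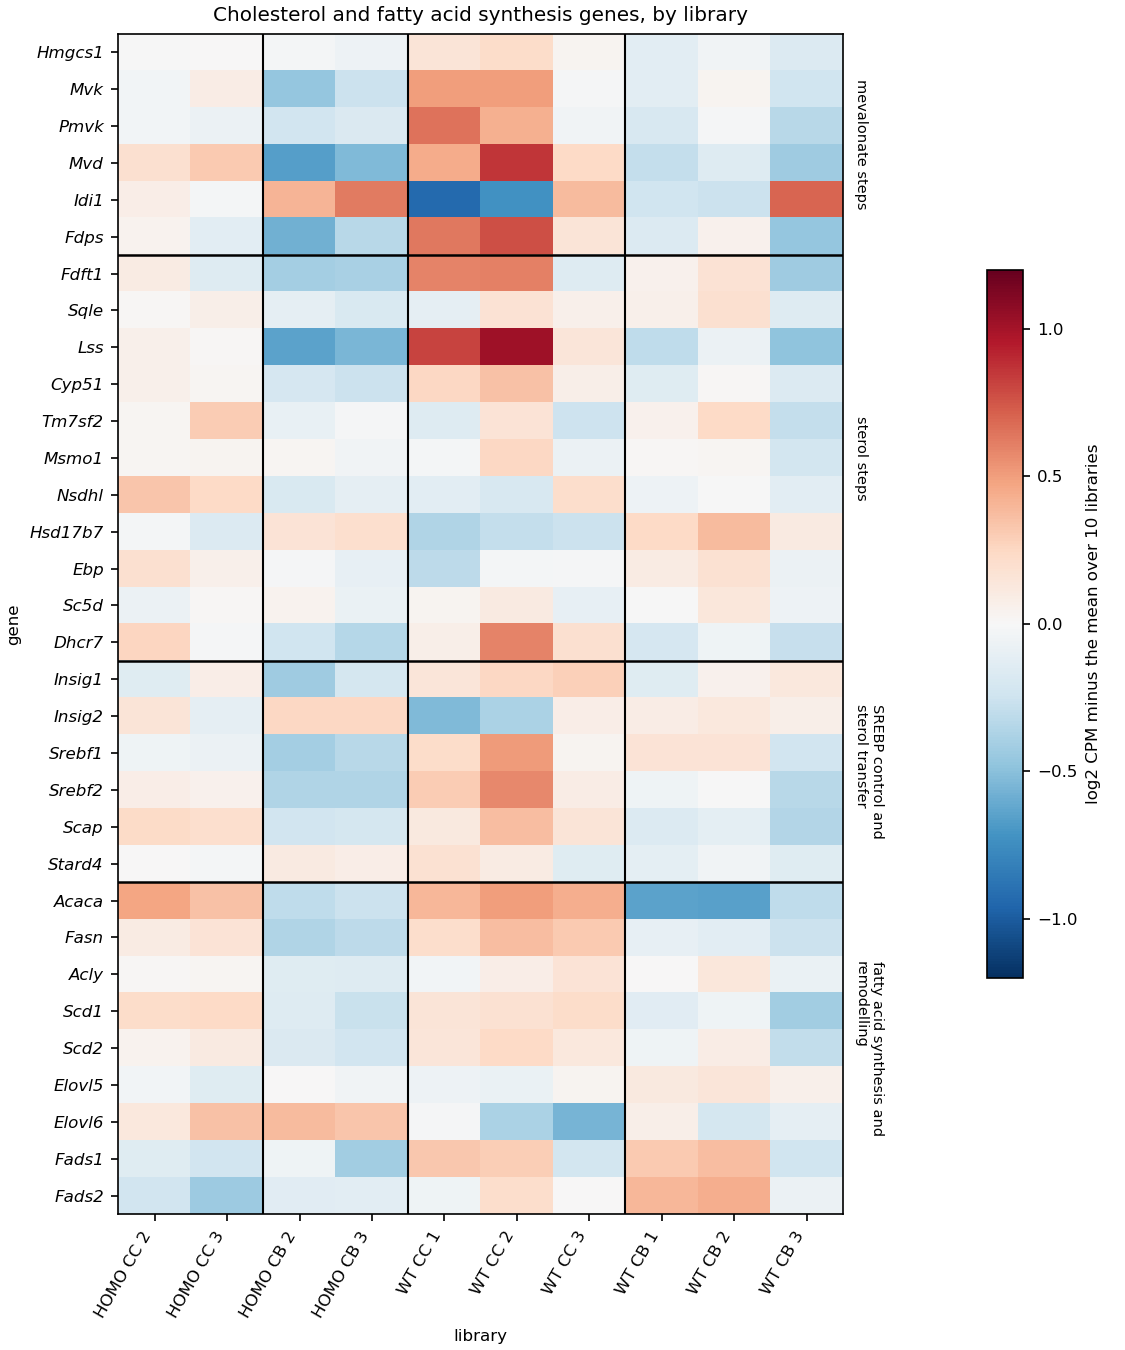
Log2 CPM of each member minus its mean over the 10 libraries, in rows by role and in columns by library from HOMO CC to WT CB (red above, blue below the mean). WT CC libraries 1 and 2 are red for most mevalonate genes and for Lss, HOMO CB is blue for many of the same genes, and Idi1 and Insig2 run the other way.

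In HOMO mice the same comparison of CC with CB gave 3 members that were higher in CC and none that were lower, while 5.45% of all genes tested passed, 2.46% higher and 2.98% lower. At an unadjusted p under 0.05 the count was 11 of 32 (34.4%), against 19.2% of all genes tested. DESeq2 called 6 higher and none lower, while it called 6.17% of all genes higher and 6.24% lower. The median log2 change of the members was 0.25, against -0.01 over all genes tested. Acaca had 151 and 139 CPM in HOMO CC, against 88.2 and 91.4 CPM in HOMO CB, and its log2 change was 0.69 (SE 0.13, edgeR adjusted p = 0.0104). Fasn had 345 and 361 CPM in HOMO CC, against 250.2 and 259 CPM in HOMO CB (log2 change 0.47, SE 0.10, edgeR adjusted p = 0.0224). Mvd had 11.4 and 12.4 CPM in HOMO CC, against 6.34 and 6.93 CPM in HOMO CB (log2 change 0.84, SE 0.22, edgeR adjusted p = 0.0497). In each of these 3 genes both CC libraries were above both CB libraries.

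The libraries did not overlap for 27 members in HOMO, 22 higher in CC (68.8%) and 5 lower (15.6%), while 62.0% of all genes tested did not overlap, 28.8% higher and 33.2% lower. In WT they did not overlap for 15, 13 higher in CC (40.6%) and 2 lower (6.25%), against 34.4% of all genes tested, 16.5% higher and 17.9% lower. Lss had 46.4 and 44.9 CPM in HOMO CC, against 28.6 and 30.4 CPM in HOMO CB, and its log2 change of 0.63 did not pass (edgeR adjusted p = 0.155). The same holds for Scap (0.43), Scd1 (0.43), Srebf2 (0.43), Dhcr7 (0.42) and Nsdhl (0.44), with edgeR adjusted p-values of 0.0643 for Scd1 and 0.0671 for Scap as the smallest. Nsdhl had 29.6 and 27.8 CPM in HOMO CC, against 20.7 and 21.8 CPM in HOMO CB, while in WT its change was 0.03. Hsd17b7 had 28.1 and 25.6 CPM in HOMO CC, against 32.04 and 33.0 CPM in HOMO CB (log2 change -0.27). Hmgcs1, at 176 and 177 CPM in HOMO CC, against 174 and 169.9 CPM in HOMO CB, had a log2 change of 0.04. The lowest value among the members was -0.49 for Idi1.

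Set side by side, the CC over CB changes in HOMO and in WT had the same sign for 28 of 32 members (87.5%), against 76.7% of all genes tested, and a Pearson r of 0.87 across the 32 genes, against 0.52 across all. The points share libraries within each genotype and genes of 1 pathway are not independent, so these are descriptions. The r values are also not like for like. All genes tested were filtered at a minimum count of 10, while the lowest count of a member was 97 reads. How far this lowers the r across all genes was not tested. With 2 libraries a group, no call in HOMO held when a HOMO library was left out: Acaca had 0.62 and 0.74 without HOMO CC libraries 2 and 3 and 0.67 and 0.72 without HOMO CB libraries 2 and 3, and over the same 4 fits Fasn had 0.43 to 0.49 and Mvd 0.77 to 0.91. Mvd also did not pass without WT CC library 1 or WT CB library 1 or 2 (0.84 in each). Without WT CC library 3 the count was 8, with Lss (0.66), Srebf2 (0.46), Scap (0.46), Scd1 (0.47) and Nsdhl (0.46) added. Of all genes 4.87% were then called higher and 4.82% lower. Without WT CB library 3 the count was 5, with Scap (0.44) and Scd1 (0.44) added, beside 4.22% of all genes higher and 5.22% lower. With the WT number as a block the count was 11, while 6.30% of all genes were called higher and 7.53% lower. With the HOMO libraries alone in the fit it was 16 higher and 1 lower, while 14.5% of all genes were called higher and 15.9% lower.

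**Figure D4:**
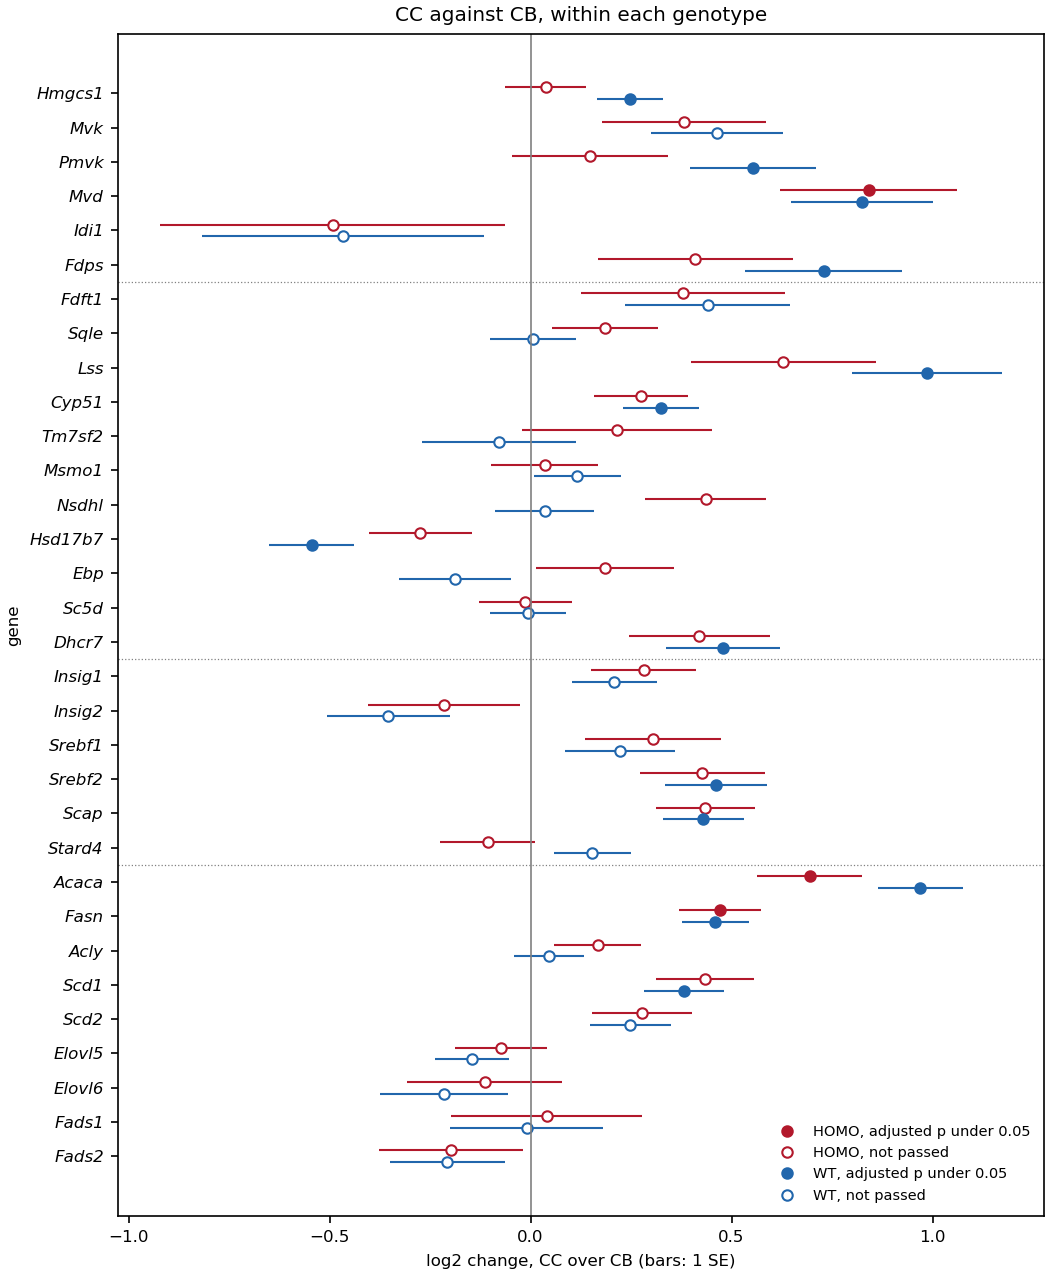
Log2 change of CC over CB in HOMO (red) and in WT (blue) for each member, with bars of 1 SE and filled points where the adjusted p was under 0.05. Most points lie right of 0 in both genotypes, Acaca, Mvd and Fasn are filled in both, and Hsd17b7, Idi1, Insig2 and Fads2 lie left of 0 in both.

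The comparison of HOMO with WT asks whether the genotype moves these genes within a fraction. No member passed in CC or in CB by edgeR. In CC 0% of all genes tested passed, and 6 members (18.8%) had an unadjusted p under 0.05, against 3142 of all 16596 genes (18.9%). DESeq2 called 1 member, Lss (-0.66), as lower, while it called 2.56% of all genes higher and 3.26% lower. In CB 0.0241% of all genes tested passed, 0.00603% higher and 0.0181% lower, and 4 members had an unadjusted p under 0.05, against 2079 of all genes, and DESeq2 called none. The median log2 change of the members was -0.08 in CC and -0.13 in CB, against -0.03 and -0.04 over all genes tested. The change was negative for 24 of 32 members in CC (75.0%) and for 25 in CB (78.1%), against 52.9% and 54.3% of all genes tested.

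The members with the smallest p in CC were Lss and Elovl6. Lss had 46.4 and 44.9 CPM in HOMO CC, against 78.2, 89.9 and 49.4 CPM in WT CC, so both HOMO libraries lay below WT but close to WT library 3 (log2 change -0.67, SE 0.21, edgeR adjusted p = 0.158). Elovl6, which lengthens saturated fatty acids, had 16.1 and 18.8 CPM in HOMO CC, against 14.6, 11.3 and 9.97 CPM in WT CC (log2 change 0.53, edgeR adjusted p = 0.168). It had 19.2 and 18.5 CPM in HOMO CB, against 15.5, 12.7 and 13.7 CPM in WT CB (log2 change 0.43, edgeR adjusted p = 0.364). All HOMO values of Elovl6 were thus above all WT values of the same fraction, in contrast to most members. The same mevalonate and sterol genes that were high in WT CC libraries 1 and 2 had negative values in CC: -0.58 for Fdps, -0.43 for Pmvk, -0.41 for Fdft1 and -0.33 for Mvk. Nsdhl had 29.6 and 27.8 CPM in HOMO CC, against 21.6, 20.6 and 27.2 CPM in WT CC (log2 change 0.31, edgeR adjusted p = 0.25).

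In CB the members with the smallest p were Insig1 and Srebf1. Insig1 had 63.6 and 74.1 CPM in HOMO CB, against 77.4, 88.7 and 93.5 CPM in WT CB (log2 change -0.33, SE 0.12, edgeR adjusted p = 0.338). Srebf1 had 67.97 and 71.7 CPM in HOMO CB, against 101, 101 and 76.8 CPM in WT CB (log2 change -0.41, SE 0.15, edgeR adjusted p = 0.342). Both lay below WT in CC as well, with -0.26 for Insig1 and -0.33 for Srebf1. Srebf2 had 362 and 364 CPM in HOMO CB, against 452, 466 and 370.2 CPM in WT CB (-0.24), and -0.27 in CC. Fads2 had 24.4 and 24.6 CPM in HOMO CB, against 35.2, 36.2 and 25.5 CPM in WT CB (-0.40), and -0.39 in CC. In all of these WT library 3 was the WT value nearest to HOMO, except for Insig1, where it was the farthest. Acaca had 88.2 and 91.4 CPM in HOMO CB, against 69.6, 69.2 and 88.3 CPM in WT CB (log2 change 0.24, edgeR adjusted p = 0.419). Scap and Scd1 had changes of -0.01 and -0.01 in CB and -0.01 and 0.04 in CC, with SEs of 0.11 in each.

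HOMO and WT libraries did not overlap for 14 members in each fraction. In CC 4 were higher in HOMO (12.5%) and 10 lower (31.3%), while 35.2% of all genes tested did not overlap, 17.7% higher and 17.4% lower. In CB 3 were higher in HOMO (9.38%) and 11 lower (34.4%), against 35.2% of all genes tested, 18.8% higher and 16.4% lower. The genes lower in HOMO in both fractions without overlap were Lss, Cyp51, Srebf1, Srebf2, Insig1, Fasn and Fads2, and Elovl6 was higher in both. None of these passed by edgeR. How many of all genes tested lay without overlap in both fractions was not determined, so the list has no background beside it. The sign of the change was the same in CC and CB for 23 of 32 members (71.9%), close to the 70.7% of all genes tested. The Pearson r between the changes in CC and CB was 0.72 across the members, against 0.42 across all genes tested. It is a description with the same limits as the r between the genotypes above.

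**Figure D5:**
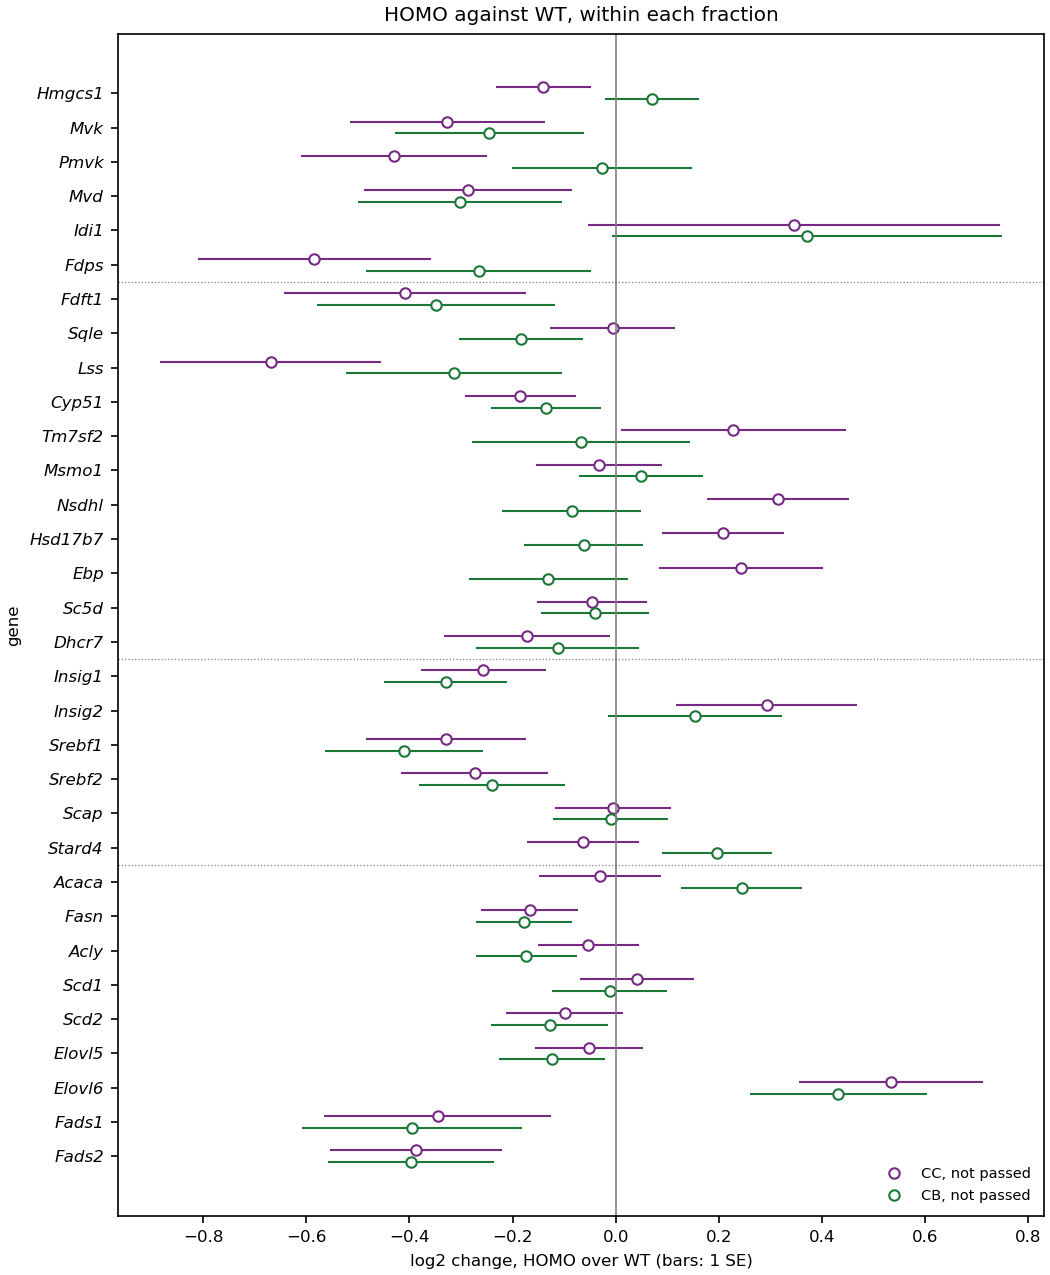
Log2 change of HOMO over WT in CC (purple) and in CB (green) for each member, with bars of 1 SE. No point is filled, since no member passed, and Srebf1, Insig1, Fads1 and Fads2 lie left of 0 and Elovl6 right of 0 in both fractions.

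These genotype results rested on the libraries of WT number 3. Without both of them 4 members were higher (12.5%) and 10 lower (31.3%) in HOMO in each fraction, while 16.5% of all genes were called higher and 14.8% lower in CC and 15.3% higher and 15.1% lower in CB. In CC Lss then had -0.85, Fdps -0.71, Fdft1 -0.58, Pmvk -0.57, Nsdhl 0.48 and Insig2 0.52. In CB Srebf1 had -0.50, Fads2 -0.52, Fdft1 -0.48, Lss -0.38 and Acaca 0.40. Without WT CC library 3 alone, Lss (-0.87), Pmvk (-0.59), Fdps (-0.73) and Fdft1 (-0.61) passed as lower and Nsdhl (0.46) and Insig2 (0.50) as higher in CC. Of all genes 7.45% were then called higher and 7.37% lower in CC. Without WT CB library 3 alone, Srebf1 (-0.53) and Fads2 (-0.54) passed as lower and Acaca (0.37) as higher in CB. Of all genes 6.49% were then called higher and 5.64% lower in CB. Those fits set HOMO against WT libraries 1 and 2 of each fraction, which in CC carried the macrophage transcripts. They also set libraries of unlike GC trend against each other, with rho of -0.18 and -0.23 in HOMO CC against 0.44 and 0.57 in WT CC, and of -0.65 and -0.62 in HOMO CB against 0.16 and 0.26 in WT CB. The part of either in these counts was not tested.

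Whether the difference between fractions depended on the genotype was tested as an interaction, the CC over CB change in HOMO minus that in WT. By edgeR 0 members and 0% of all genes tested passed, and no member had an unadjusted p under 0.05, against 434 of all genes (2.62%). DESeq2 called no member and 0% of all genes. The values ran from -0.40 for Pmvk (SE 0.25) to 0.40 for Nsdhl (SE 0.19), with -0.28 for Acaca (SE 0.17), -0.36 for Lss (SE 0.30), -0.21 for Hmgcs1 (SE 0.13) and 0.01 for Fasn (SE 0.13). The counts of 12 members in WT and 3 in HOMO are therefore not shown to differ. Without both libraries of WT number 3, when 5.04% of all genes passed with a positive and 3.94% with a negative value, Nsdhl (0.56) passed with a positive value and Pmvk (-0.49), Lss (-0.47), Acaca (-0.41) and Stard4 (-0.33) with a negative one.

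Of 73 tested genes of neighbouring lipid pathways, 8 were higher and 11 lower in CC than in CB of WT mice, 1 was higher and 1 lower in HOMO, and none passed between genotypes in either fraction. In WT these were 11.0% higher and 15.1% lower, beside the 11.6% and 12.3% of all genes tested, and in HOMO 1.37% each way, beside the 2.46% and 2.98% of all genes tested. In WT the genes of fatty acid oxidation, which runs against synthesis, gave 6 lower (35.3%) and none higher of 17, against 12.3% lower and 11.6% higher among all genes tested. Cpt1a, which admits long-chain fatty acids to mitochondria, had 76.7, 68.7 and 72.5 CPM in WT CC, against 186, 168 and 139.5 CPM in WT CB (log2 change -1.18, SE 0.13, edgeR adjusted p = 0.000151). It was also the gene that was lower in HOMO, with 113 and 89.9 CPM in HOMO CC, against 197 and 173 CPM in HOMO CB (log2 change -0.87, SE 0.15, edgeR adjusted p = 0.00756). The mitochondrial trifunctional protein gene Hadhb (-0.58) and the electron transfer flavoprotein gene Etfa (-0.54) followed in WT. Of 11 genes of cholesterol esterification, efflux and the LXR receptors, 5 were higher (45.5%) and 1 lower (9.09%) in WT CC, against the same shares of all genes. Abcg1, a sterol exporter, had 27.0, 14.96 and 22.0 CPM in WT CC, against 3.94, 4.05 and 7.04 CPM in WT CB (log2 change 2.07, SE 0.28, edgeR adjusted p = 0.000574). In HOMO it had 14.2 and 21.1 CPM in HOMO CC, against 5.97 and 5.37 CPM in HOMO CB (log2 change 1.63, SE 0.34, edgeR adjusted p = 0.018). The lysosomal sterol carrier gene Npc2 was higher in WT CC (0.63) and Mylip, which encodes a ligase that acts on lipoprotein receptors, was lower (-0.45). Nr1h3, the LXR alpha gene, also passed, at 14.99, 3.57 and 0.421 CPM in WT CC, against 0.433, 0.412 and 0.343 CPM in WT CB, so its level ran with the macrophage genes and its change without WT CC libraries 1 and 2 was 0.11. It is named outside the rule, after its values were seen.

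Of 9 tested genes of SREBP processing and sterol-regulated degradation, 3 were lower in WT CC (33.3%, against 12.3% of all genes tested): Erlin1 (-0.61), the ligase gene Rnf139 (-0.90) and the site protease gene Mbtps2 (-0.46), which acts in the cleavage of SREBP. Of 12 genes that supply or break down acetyl-CoA, malonyl-CoA and acyl-CoA, the acyl-CoA synthetase gene Acsl5 was lower (-0.59). The citrate carrier gene Slc25a1 (0.42) and Mlycd (0.63), whose decarboxylase breaks malonyl-CoA down, were higher. This made 8.33% lower and 16.7% higher. Of 13 genes of the isoprenoid branches, Pdss2, which builds the side chain of ubiquinone, was higher (0.51), or 7.69%. All genes tested gave 12.3% lower and 11.6% higher. Of 8 genes of long-chain elongation and further desaturation none passed (3 at an unadjusted p under 0.05), with 0.19 for Tecr and -0.31 for Hsd17b12, and of 3 genes of oxysterol synthesis and sensing none passed (0 at an unadjusted p under 0.05), with -0.02 for Cyp27a1 and 0.64 for Gpr183. Cpt1a and Abcg1 passed in WT under all 26 alternatives, and the other 17 did not pass in at least 1, among them Erlin1, Rnf139, Hadhb and Npc2 without WT CC libraries 1 and 2 (-0.47, -0.41, -0.41 and 0.50). Without a HOMO library, Abcg1 did not pass in HOMO (1.32 to 1.88), and Cpt1a did not without HOMO CC library 3 (-0.73) or HOMO CB library 2 (-0.77).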

How the data were processed

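Per the labels, total RNA of the enriched B cells was depleted of ribosomal RNA and made into libraries with the KAPA RNA HyperPrep kit with RiboErase. The authors deposited 1 table of raw read counts per gene for all 10 libraries. Per the submitters' processing notes the tools were FastQC, STAR, Subread, featureCounts and R 4.2.1, and the build was mm10. The sources used here give neither the annotation release nor how strand and multiply mapping reads were handled, although all 54673 versioned gene IDs that GENCODE M21 holds had the same coordinates there. HOMO columns of the table carry the numbers 2 and 3 where the sample titles carry 1 and 2, so they were assigned to their group only.

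From the counts, genes were kept by filterByExpr (minimum count 10, minimum total 15), scaled by TMM and tested in edgeR 4.0.16 (R 4.3.3) with the robust quasi-likelihood F-test on 4 group means over all 10 libraries, with Benjamini-Hochberg adjustment over all 16596 genes and calls at an adjusted p under 0.05. Variation between replicates, as edgeR's common BCV, was 23.1%. The SE is the absolute log2 change divided by the square root of F. No library was a copy of another, as the chi-square per degree of freedom between replicates over genes with at least 20 reads was 4.14 to 80.7. Alternatives used DESeq2 1.42.0, limma 3.58.1 and the other settings given in the closing section. The main fit used no pairing, and in the alternatives with a replicate block the WT libraries were taken as paired by number from the data. Deviations of same-numbered CC and CB libraries correlated with r of 0.303, 0.427 and 0.436 over 8795 genes, and those of different numbers with -0.411 to 0.277. The pairing of number 1 is weakly backed, since WT CB library 1 had 0.303 with WT CC library 1 and 0.277 with WT CC library 2. The rule for naming genes was that all 32 members are accounted for, that among members past the threshold at most 6, taken by p, get library values and full statistics in each comparison, and that of each neighbouring pathway at most 3 genes past the threshold, taken by p, are named, or the 2 with the highest level where none passed; Pbrm1 and cell type markers are given as levels. The members and lists were chosen with earlier results of these data known.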

Additional observations from a re-analysis of the deposited data

How the results depend on the processing

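Over 26 settings, 186 results on single genes were recomputed 4670 times; 4216 kept their direction and their side of the threshold, 283 fell below the threshold, 169 passed it, and 2 turned round, both in WT CC against CB with the ribosomal share as a covariate (Pmvk -0.064 and Nr1h3 -1.45; the cause was not tested). For CC against CB in WT, 12 members higher and 1 lower became 6 higher with only the groups compared in the fit, 2 lower with the WT number as a random or as a fixed replicate block (15 and 16 higher), 2 and 0 without WT number 1, 4 and 0 without number 2, 16 and 4 without number 3, 2 and 0 without WT CC libraries 1 and 2, 9 and 0 without WT numbers 1 and 2, and 1 and 0 with the ribosomal covariate. For CC against CB in HOMO, 3 higher and 0 lower became 6 with DESeq2, 5 with upper-quartile scaling or a stricter filter, 2 with limma-voom with or without the random replicate block, 16 and 1 with HOMO alone, 11 with the fixed replicate block, 10 with that block and a GC offset, 1 without WT number 1, 12 and 1 without number 3, 6 without WT CC libraries 1 and 2, and 16 and 1 without WT numbers 1 and 2. For HOMO against WT, 0 and 0 became 4 higher and 10 lower in each fraction without WT number 3, 1 lower in CC with DESeq2 or no filter, and 1 higher in CC and 1 lower in CB without WT numbers 1 and 2. For the interaction 0 and 0 became 1 and 4 without number 3. Leaving out single libraries gave 5 to 16 higher and 1 to 3 lower in WT, 0 to 8 and 0 in HOMO, 0 to 2 and 0 to 4 for HOMO against WT in CC, 0 to 1 and 0 to 2 in CB, and 0 for the interaction. Upper-quartile scaling gave 2351 genes higher and 1599 lower in WT CC, against 1917 and 2048, and 586 and 416 in HOMO, against 409 and 495. Shares of all genes higher and lower in WT were 7.70% and 7.94% with only the groups compared and 16.1% and 17.5% with the random block. They were 3.06% and 3.27% without number 1, 3.81% and 3.82% without number 2, and 22.2% and 23.9% without number 3. In HOMO they were 4.27% each with the stricter filter, 2.27% and 2.54% with limma-voom, 1.68% and 2.05% without number 1, and 10.0% and 13.0% without number 3. The number of all genes called moved by more than 1.5 times as well, between 246 and 3565 higher and 272 and 3839 lower in WT and between 61 and 2123 and 108 and 2378 in HOMO. It reached 2649 and 2386 for HOMO against WT in CC and 2462 and 2433 in CB. With 2 or 3 libraries a group, the spread between libraries limits the precision of a member's change, and the lowest count behind a member's value was 97 reads.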
